A study of Homo sapiens with 2 samples.

Results

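The RNA contacts examined here are the iCLIP peaks of DDX18 that the deposited list places in a 5' UTR, the untranslated stretch of an mRNA between its cap and its start codon. They were taken as the positions whose annotation begins with that region, each position counted once. There were 363 such positions among 16095 in all, or 2.26% (95% binomial interval 2.03 to 2.5), from 378 of 17163 entries. The cells were H9, a line of human embryonic stem cells long established in culture, made to carry 3XFlag-DDX18, the helicase with a repeated FLAG epitope, and kept in normal culture on irradiated mouse fibroblast feeders. They were crosslinked with 160 mJ/cm2 of ultraviolet light at 254 nm, and DDX18 was recovered through the tag. Both samples, replicates 1 and 2, form 1 group and share 1 list of peaks, so no value carries an error between samples, the reads per sample are unknown here, and no groups were compared. The labels name neither the promoter of the tagged gene nor whether the cells were 1 clone, and no sample without the tag and no input library was used here.

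DDX18 is a DEAD-box RNA helicase that works mainly in the nucleolus, where ribosomal subunits are built. iCLIP maps the RNA that a protein touches by freezing the contact with ultraviolet light and finding where reverse transcription stops beside the crosslink. In a finished mRNA the 5' UTR is the part that the small ribosomal subunit scans before it meets the start codon. Upstream reading frames, iron-responsive elements and folded stretches in this region are textbook examples of control of translation, and DEAD-box helicases such as the initiation factor eIF4A act on it.

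The peaks were called in 317 genes, and 360 of the 363 lay in genes that are protein-coding in the gene table. The called gene was the gene of the annotated transcript for 358 positions. The strand of the annotated gene could be settled for 337 positions, and the peak lay on that strand for 335. The exceptions are a position of height 7 in the 5' UTR of HNRNPA0, called in MYOT on the opposite strand, and one of height 6 in the 5' UTR of TXNIP, called in LINC01138. The remaining positions called in another gene were those in the 5' UTRs of SOX2 (called in SOX2-OT), ATP6V0C (called in TBC1D24) and SEZ6L2 (called in SMG1P2 and 4 other genes). Markers of pluripotent cells had a peak of any region in 12 of 14 genes, with POU5F1 and SOX2 as the exceptions by called gene. Of 15 fibroblast or feeder markers, 8 had a peak of any region, as did 3 of 5 neuroectoderm, 1 of 4 mesoderm and 1 of 5 endoderm markers. In a 5' UTR, 3 of the 14 pluripotent markers and none of the others had a peak. Over all protein-coding genes, 31% had a peak of any region and 1.57% one in a 5' UTR. At that share, no 5' UTR peak in so few markers tells nothing about the cell type. Mouse reads were not separated here, and a part of feeder RNA in these peaks was not tested.

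Most of the positions lay in the first exon, not far from the start of the transcript. Exon 1 held 278 of the 363 (76.6%, interval 71.9 to 80.8), exon 2 held 59, exon 3 held 20, and exons 4 to 7 held 6 together. For 346 positions the nearest start site belonged to the annotated gene and lay upstream of the peak. In exon 1 the median distance from that start was 211 nt (quartiles 150.5 and 355.5, n = 275), and the farthest lay at 1372 nt. By distance, 69 of these exon 1 positions lay within 150 nt of the start, 63 more within 200, 59 more within 300, 50 more within 500, 31 more within 1000 and 3 beyond. None of them lay within the first 100 nt, and the nearest was at 102. That edge belongs to the annotation program, HOMER, which labels the first 100 nt of a transcript as part of the start site before it names UTRs. Under that label, 136 further peaks of protein-coding genes lay 0 to 100 nt downstream of their own gene's start, so the 5' UTR label leaves out the cap-proximal stretch. How long these 5' UTRs are and how much of their sequence lies in exon 1 was not examined. The exon 1 share and the distances therefore show no preference of DDX18 within 5' UTRs.

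**Figure D1:**
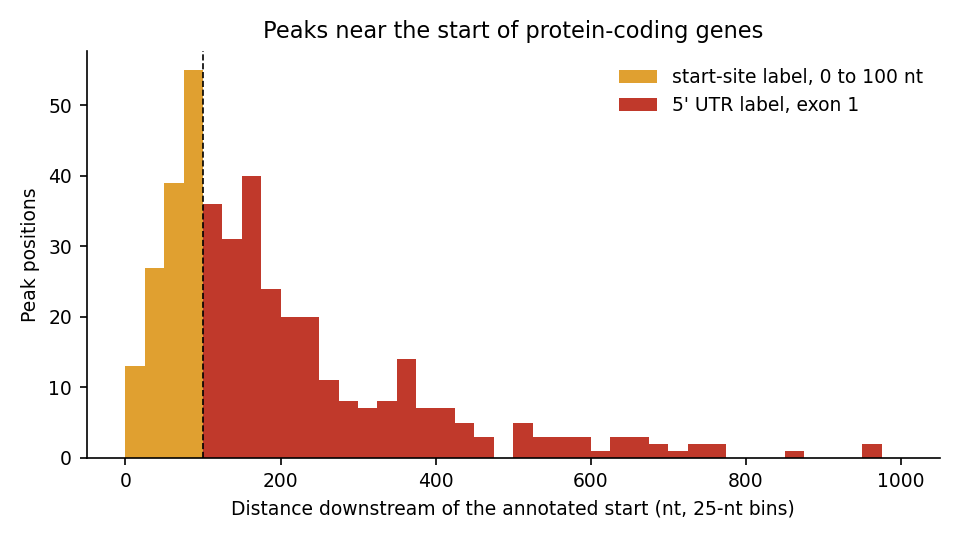
Number of peak positions (vertical axis) by distance in nt downstream of the annotated start (horizontal axis, bins of 25 nt), for peaks with the start-site label in protein-coding genes (orange) and for 5' UTR peaks in exon 1 (red), up to 1000 nt. The dashed line marks 100 nt, where the label changes, and the red bars fall off from there with a median of 211 nt. The counts are not adjusted for the lengths of the 5' UTRs.

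Across that edge the heights were close. The 54 start-site positions at 76 to 100 nt had a median height of 8 (quartiles 6 and 11), and the 37 exon 1 positions with the 5' UTR label in the next 25 nt had a median of 10 (quartiles 7 and 15). Height is the deposited peak height, a whole number that was scaled neither to depth nor to the amount of each RNA. It was not separated from how abundant an mRNA is, here or below.

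Set against other regions of protein-coding genes, 5' UTR peaks had a like median height, and their share of tall peaks was close to that of the whole list. Their median height was 9 (interval 8 to 9, n = 359 once positions nearest a small RNA gene or called outside protein-coding genes were left out). Peaks in coding exon 1 had a median of 8 (n = 340), those in later coding exons 9 (n = 6650), those in 3' UTRs 8 (n = 2737) and intronic ones 6 (n = 2616). A height of 20 or more was reached by 10.9% of the 359 (interval 7.84 to 14.6), by 9.31% of peaks in later coding exons (8.62 to 10) and by 11% of all positions of the list. A height of 50 or more was reached by 12 of the 359 (3.34%, interval 1.74 to 5.77), which came from 10 genes. Over all positions of the list that share was 3.14% (interval 2.88 to 3.43), and in introns 3.21% (2.57 to 3.96). The same height was reached by 0.797% of peaks in later coding exons (interval 0.598 to 1.04), by 1.86% in 3' UTRs (1.39 to 2.44) by 2.35% in coding exon 1 (1.02 to 4.58) and by 2.94% under the start-site label (0.807 to 7.36). The intervals of 5' UTRs and later coding exons overlap at a height of 20 and do not at 50, where that of 5' UTRs overlaps those of all positions, introns, 3' UTRs, coding exon 1 and the start-site label. The tallest positions of the 3' UTRs (3529) and of the start-site label (1818) stood above the tallest in a 5' UTR. These intervals cover counting error alone and treat peaks of 1 gene as separate, which they are not. All 363 positions held 5020 of the 653535 units of summed height, or 0.768%. The highest position alone made up 7.47% of the 5' UTR height and the 10 highest 23.2%, while 226 positions had a height of 10 or less and the lowest had 3.

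**Figure D2:**
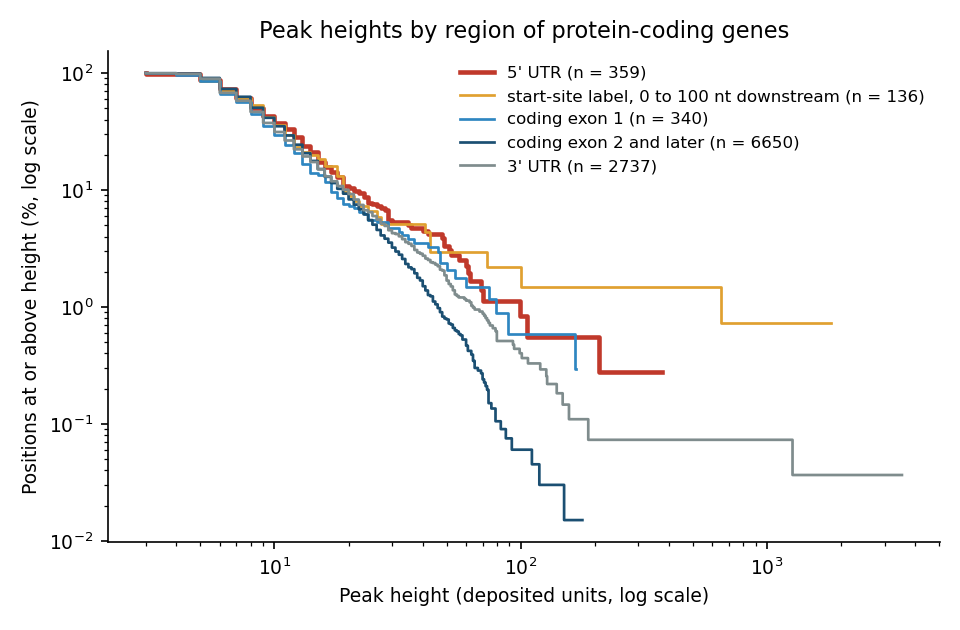
Share of positions at or above each peak height (both axes logarithmic; vertical axis in percent, horizontal axis in the deposited height units) for 5' UTR peaks (red, n = 359), start-site peaks 0 to 100 nt downstream (n = 136), coding exon 1 (n = 340), later coding exons (n = 6650) and 3' UTRs (n = 2737). At a height of 20 the red curve stands at 10.9% and that of later coding exons at 9.31%, and at 50 they stand at 3.34% and 0.797%, where all positions of the list, not drawn, stand at 3.14%.

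The deposited list also gives each called gene 1 expected height, against which its peaks were judged. Over the same 359 positions the height was a median of 87.5 times the expected height (interval 77.8 to 100), beside 100 over all positions of the list, 77.8 in later coding exons and 85.7 in 3' UTRs. That median was 97.6 for start-site peaks 0 to 100 nt downstream, 100 in coding exon 1 and 292.2 in introns. Expected height and height rose together over the 356 positions with an expected height above 0 (Spearman's rho 0.8, given as a description: positions share the library, and those of a gene share the expected height). The list holds only peaks judged significant against that expected height, with a highest p of 0.05. A low height over a high expected height could thus not be listed, and a rise is in part built in. The lowest deposited p, 1e-100, was reached by 68 of the 359 positions (18.9%, interval 15 to 23.4), and by 14.6% of all positions of the list (2354 of 16095). Start-site peaks 0 to 100 nt downstream stood at 17.6% (interval 11.6 to 25.1), later coding exons at 15.6%, coding exon 1 at 14.7%, 3' UTRs at 14.2% and introns at 10.5%. The peaks were narrow, with a median width of 11 nt (quartiles 4 and 19) beside 13 nt over the list. The 25 highest, of height 28 or more, had a median width of 2 nt. So had the 1048 positions of the whole list that reached that height.

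**Figure D3:**
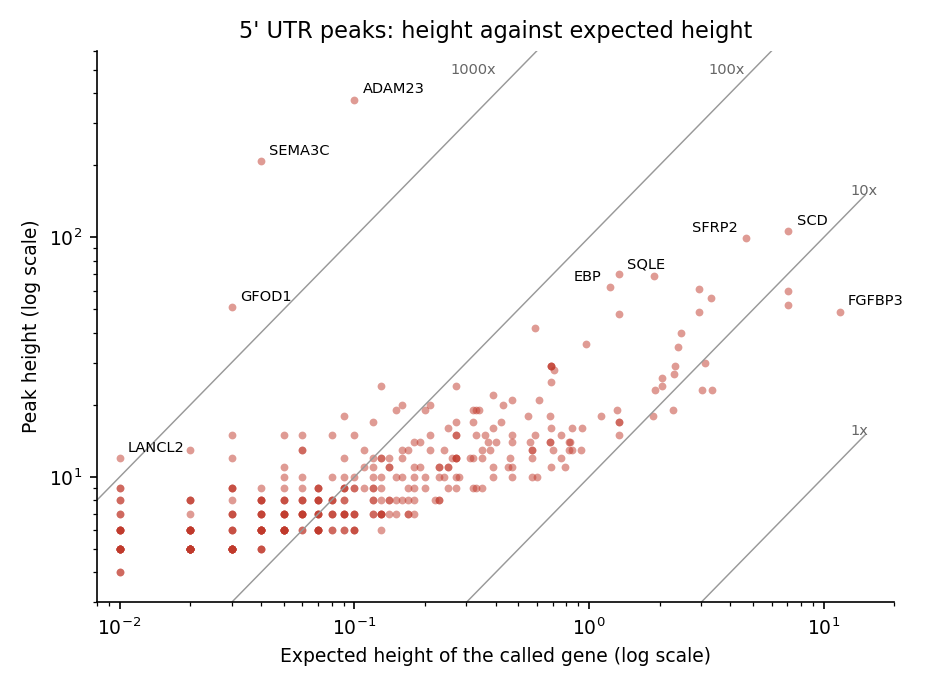
Peak height against the expected height of the called gene, both on logarithmic axes in the deposited units, with 1 point for each of the 356 5' UTR positions with an expected height above 0. Grey lines mark heights of 1, 10, 100 and 1000 times the expected height. ADAM23, SEMA3C and GFOD1 stand above the cloud at 3750, 5200 and 1700 times.

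The 2 highest positions lay in genes without any other peak. ADAM23, which encodes a cell-surface adhesion protein of the ADAM family, had a position of height 375 in exon 1 of 26 at chr2:207308546-207308559 on the plus strand of hg19, 184 nt from the start, against an expected height of 0.1. SEMA3C, a secreted semaphorin that guides migrating cells, had one of height 208 in exon 1 of 18 at chr7:80548553-80548569 on the minus strand, 106 nt from the start, against 0.04. GFOD1 had a position of height 51 at chr6:13487695-13487704, 170 nt from the start, against an expected height of 0.03, and its other 2 peaks, both intronic, had heights of 6. The positions of ADAM23, SEMA3C and GFOD1 were 14, 17 and 10 nt wide, where the 25 highest had a median of 2 nt. Their deposited p was 1e-100, 8.57e-09 and 5.92e-09. The origin of these 3 positions was not tested. Among the 356 positions with an expected height above 0, these were the largest heights over expected height: 5200 for SEMA3C, 3750 for ADAM23 and 1700 for GFOD1, followed by LANCL2 with 1200 (height 12) and by ROBO1 and PI4K2B with 900 each (height 9). For 7 further positions, of heights 3 to 7, the expected height is listed as 0 and no ratio could be had. Expected heights are given to 2 decimals, so ratios over an expected height of 0.01, as for LANCL2, ROBO1 and PI4K2B, are rough. The other 16 genes of the 25 highest positions had from 2 (L1TD1) to 23 (SCD) peaks in other regions.

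The genes that follow, up to TUBA1B, come from the 25 highest positions, except SLC1A5, SLC38A1, PSAT1 and PSPH, which were chosen after their values were seen. They are grouped by what they encode for reading only, with no count or test of any such group. SCD, the desaturase that makes monounsaturated fatty acids, had 3 positions in exon 1 with heights of 60, 106 and 52 at 220, 339 and 461 nt from its start on chromosome 10. It also had 8 peaks in coding exons and 15 in the 3' UTR, the highest of 140, and 13.4% of its summed height lay in the 5' UTR. SQLE, squalene epoxidase, had 5 positions of heights 17, 17, 70, 48 and 15 at 167, 285, 521, 731 and 861 nt, and none of its 11 peaks in coding exons passed 36. With 41.3% of its height in the 5' UTR, SQLE is 1 of the genes whose tallest peak lay there. EBP, the sterol isomerase, had a position of height 62 in exon 2 of 5 at chrX:48382139-48382144, against a highest of 21 among its 4 other peaks. DHCR7, which makes the last step to cholesterol, had one of height 40 in exon 2 of 9 at chr11:71158749-71158753, level with its highest other peaks of 42 and 40.

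SLC7A8, the light chain of a neutral amino acid exchanger, had 5 positions of heights 29, 29, 25, 16 and 29 at 161, 314, 535, 611 and 727 nt from its start on chromosome 14, with 24% of the gene's height. SLC38A2, a sodium-coupled neutral amino acid transporter, had 1 of height 35 at 321 nt, and SLC1A5, a glutamine transporter, 1 of height 27 at 123 nt. SLC38A1 had positions of 19 and 15 in exons 2 and 3 of 17. PHGDH, the first enzyme of serine synthesis, had 1 of height 42 at 211 nt, the highest of its 9 peaks. PSAT1, the next enzyme of that route, had 1 of height 17 at 124 nt, and PSPH, the last, had 1 of height 5 in exon 3 of 8. SLC16A1, a lactate and pyruvate transporter, had 1 of height 36 in exon 2 of 5, below its highest peak elsewhere of 51.

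Others of the 25 highest positions encode secreted, surface and cytoskeletal proteins. SFRP2, a secreted Wnt-binding protein, had a position of height 99 at 112 nt (chr4:154710116, minus strand), beside a peak of 157 in its 3' UTR. GJA1, the gap junction protein connexin 43, had 1 of height 69 at 119 nt, the highest of its 13 peaks. FGFBP3, a secreted carrier of fibroblast growth factors, had 1 of height 49 in exon 2 of 2 and the lowest height over expected height of all 363 positions, 4.19. TUBA1B, an alpha-tubulin, had 1 of height 30, where its highest peak elsewhere was 51. The 25 positions, of heights from 375 down to 28, came from 19 genes, and 20 of them lay in exon 1. The next height was 27. No small RNA gene of the gene table lay inside any of those 19 genes.

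Positions tended to be single. Of the 317 called genes, 287 had 1 position, 19 had 2, 8 had 3, 1 had 4 and 2 had 5. The genes with 3 or more were SLC7A8, SQLE, SEMA6A, SCD, RTN4, FRAS1, ROBO1, USP9X, XPO1, SPTBN1 and JARID2. SEMA6A, a transmembrane semaphorin, had heights of 15, 10, 24 and 12 at 125, 371, 517 and 584 nt. JARID2, an accessory subunit of Polycomb repressive complex 2, had 20, 13 and 12 at 194, 387 and 559 nt. SPTBN1, a beta-spectrin, had 20, 15 and 13 and also the most peaks in coding exons of the 6 genes drawn, 32. XPO1, the main exporter of nuclear proteins, had 8, 10 and 11, and RTN4, the neurite outgrowth inhibitor Nogo, had 7, 12 and 8. FRAS1, an extracellular matrix protein, had 9, 7 and 7 beside 53 peaks elsewhere, and ROBO1, a Slit receptor, had 9, 7 and 6. USP9X, a deubiquitinase, had 9 and 8 in exon 1 and 17 in exon 2 of 45. Between neighbouring positions of a gene the gap was a median of 127.5 nt over 46 gaps, with the smallest at 61 nt.

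**Figure D4:**
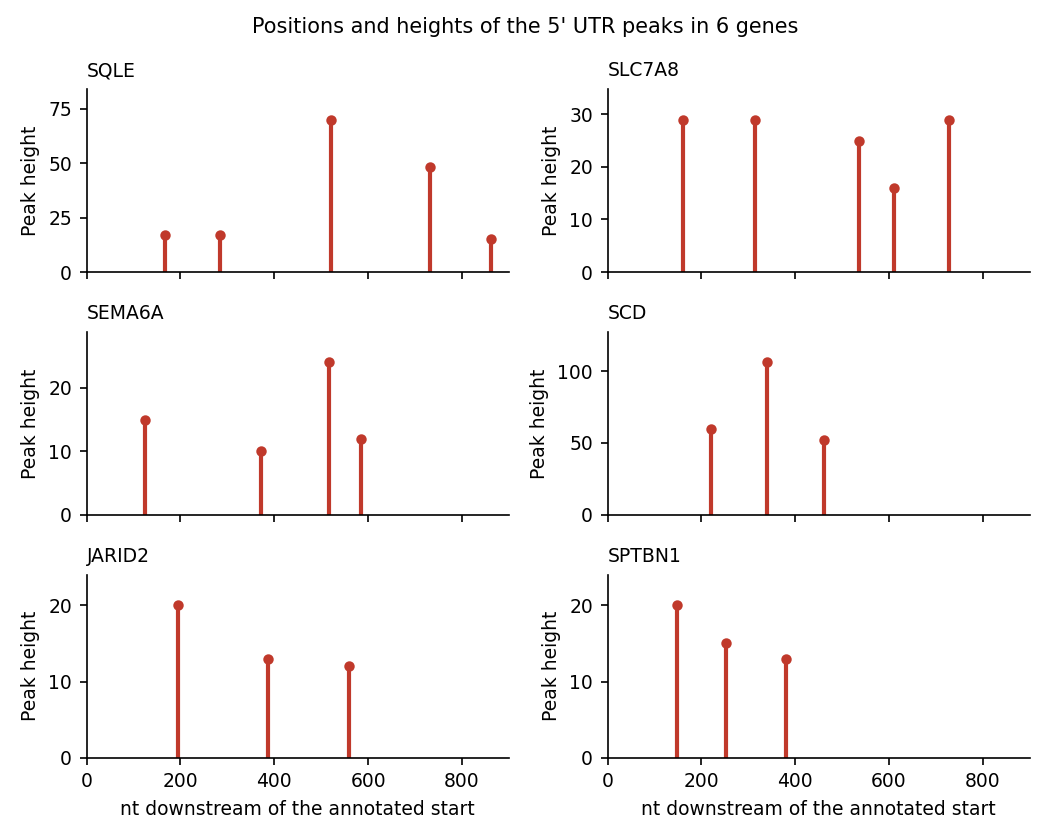
Height (vertical axis, deposited units, starting at 0) of each 5' UTR position against its distance in nt from the annotated start (horizontal axis, 0 to 900 nt) for SQLE, SLC7A8, SEMA6A, SCD, JARID2 and SPTBN1, 1 stem for each position. SQLE and SLC7A8 have 5 positions each, SEMA6A has 4 and the others have 3, and the scale of the vertical axis differs between genes.

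The genes with a 5' UTR peak mostly had peaks in other regions as well. Of the 317 genes, 247 had a peak elsewhere (77.9%, interval 72.9 to 82.4): 191 in a coding exon, 141 in the 3' UTR, 64 in an intron and 34 under the start-site label. Among all protein-coding genes with a peak, 47.3% had 2 or more. The 2 shares are not like for like, since a gene with more peaks is more likely to have one in any given region. With peaks kept only where the called gene was that of the nearest start site, the share fell to 58% (interval 52.2 to 63.6). In the 247 genes the 5' UTR held 15.2% of the positions and 13.5% of the summed height, and the tallest peak of the gene lay in the 5' UTR in 62 (25.1%). The other 70 genes had no peak outside the 5' UTR. After ADAM23 and SEMA3C, their highest positions were those of HNRNPA0 (23), LRAT, a retinol-esterifying enzyme (21), CLDN7, a tight-junction claudin (18), and CHPF2, a chondroitin synthase (12 and 10).

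The 85 positions beyond exon 1 (23.4%, interval 19.2 to 28.1) lie in 5' UTRs that an intron divides. Their median height was 8 (quartiles 6 and 12), beside 9 (quartiles 7 and 13) in exon 1. After EBP, FGFBP3, DHCR7 and SLC16A1, the tallest were L1TD1 with 28 in exon 3 of 4, HMGA1 with 23 in exon 2 of 6 and PLD3 with 20 in exon 3 of 13. IER2, an immediate early gene, had 19 in exon 2 of 2. ASNS, asparagine synthetase, had 13 in exon 3 of 13. NLGN4X, a neuroligin, had 15 in exon 2 of 6, and at 75634 nt from the annotated start it was the farthest along the genome.

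By gene list, glycolysis genes, chaperones and splicing proteins had the larger shares of members with a 5' UTR peak, apart from a list of 6 genes described further on. Over all protein-coding genes that share was 1.57% (314 of 20056), and it was 5.05% of the 6218 genes with a peak of any region, which are 31% of protein-coding genes. Chaperones and heat shock proteins had one in 6 of 30 genes (20%, interval 7.71 to 38.6). HSPA5, the main chaperone of the endoplasmic reticulum, had a height of 56 at 164 nt, above its other 6 peaks, of which the highest had 31. PDIA6 and PDIA4, disulfide isomerases of the same compartment, had 21 and 14. CANX, the lectin chaperone calnexin, had 16, CCT4, a subunit of the cytosolic chaperonin, 15, and HSP90AA1 8. All 6 lay in exon 1, between 107 and 229 nt from the start.

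Splicing factors and hnRNPs had a 5' UTR peak in 9 of 56 genes (16.1%, interval 7.62 to 28.3). HNRNPA0 had 23 at 178 nt, the only peak called in it, HNRNPD had 22 and 10, and HNRNPU had 18. These are hnRNPs, proteins that coat nascent transcripts. Among proteins of the spliceosomal snRNPs, SNRPN had 19 in exon 7 of 13, SNRPA 16, SNRNP70 12 and SNRPB 11. The SNRPN position was also listed under SNURF, the gene that shares its transcript. NONO, a paraspeckle protein, had 14 in exon 2 of 13 and HNRNPH3 had 9.

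Glycolysis genes had one in 4 of 19 (21.1%, interval 6.05 to 45.6). SLC2A3, the glucose transporter GLUT3, stood first with 49 and 61 at 172 and 247 nt on chromosome 12, and its 18 other peaks reached 87. The enzymes ALDOA, GPI and PFKM had 14, 8 and 6. The ALDOA position was listed under 8 genes, of which ALDOA is the annotated one. Of the genes with a peak of any region, 25% of chaperones, 23.5% of glycolysis genes and 18.4% of splicing factors had one in a 5' UTR. The share over all such genes was 5.05%. By this second measure other lists were as high or close. Polycomb genes stood at 20%, ubiquitin genes at 16.7%, pluripotency factors at 15.8% and growth signalling genes at 15%. The list of 6 genes with an iron-responsive element stood at 33.3%. These 3 lists are set apart only for their shares of all members among 20 lists. All lists were written with earlier results of these data known, and no test was made. In each of these 3 lists 80% or more of the genes had a peak of some region, beside 31% of protein-coding genes.

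Lists of ribosomes and the nucleolus each had 1 gene with a 5' UTR peak, although many of their genes had a peak of some kind. Their shares of 1.25%, 1.67% and 3.7% lay near the 1.57% of all protein-coding genes. Among cytosolic ribosomal proteins 1 of 80 had one (1.25%, interval 0.0316 to 6.77), against 67 with a peak of any region and 5 with a start-site peak 0 to 100 nt downstream. That 1 gene was RPLP1, a protein of the ribosomal stalk, with a height of 29 at 113 nt (chr15:69745272, plus strand). Ribosome assembly factors had 1 of 60, GAR1 (6), and nucleolar and polymerase I genes 1 of 27, NPM1 (11), beside 35 and 15 with a peak of any region. DEAD-box and DEAH-box helicases had 0 of 42, which allows a share of up to 8.41%, with 21 having a peak of any region and 18 a coding-exon peak. DDX43, a DEAD-box gene that the list does not hold, had a 5' UTR position of height 8. Nuclear genes of oxidative phosphorylation had 1 of 62, COX6B1 (6). The counts are small, and all of these intervals hold the 1.57% of all protein-coding genes. Of the genes with a peak of any region, the shares were 1.49% for ribosomal proteins, 2.86% for assembly factors and 6.67% for nucleolar genes. They were 0% for helicases and 2.7% for oxidative phosphorylation, beside 5.05% over all such genes. The 5' UTR label leaves out the first 100 nt, so a 5' UTR that ends within that stretch could not be counted. How long the 5' UTRs of these lists are was not examined.

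mRNAs known for translational control through the 5' UTR were represented by single members. Among those known for upstream reading frames 1 of 19 had a 5' UTR peak: PPP1R15B, which keeps eIF2 dephosphorylated, with a height of 11 at 370 nt, its only peak. ATF4, DDIT3 and ODC1 were without one. Of 6 mRNAs with an iron-responsive element in this region, 1 had a 5' UTR peak: FTH1, the ferritin heavy chain, with a height of 9 at 234 nt. Whether that position lies at the element was not examined. The intervals of the 19 (0.133 to 26%) and of the 6 (0.421 to 64.1%) both hold the 1.57% of all protein-coding genes. Translation factors had a 5' UTR peak in 3 of 48 (6.25%, interval 1.31 to 17.2). These were PABPC1, the poly(A)-binding protein, with 13 at 109 nt, EIF3M with 10 at 116 nt, and EIF4G3 with 6 in exon 6 of 15.

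Pluripotency factors had a 5' UTR peak in 3 of 29 genes by called gene (10.3%, interval 2.19 to 27.4). L1TD1, an RNA-binding protein of pluripotent cells, had 28 in exon 3 of 4 at chr1:62672239-62672249, above its coding-exon peaks of 11 and 17, so that 50% of its height lay in the 5' UTR. PODXL, a sialomucin of the stem cell surface, had 26 and 24 at 123 and 253 nt, and CRIPTO, the Nodal co-receptor, had 15 at 240 nt. By annotation there are 4, with SOX2, a core transcription factor of these cells. Its position lies in its only exon at chr3:181429813-181429816 on the plus strand, 102 nt from the SOX2 start, with a height of 12. The list assigned it to SOX2-OT, the long non-coding RNA whose gene spans SOX2, with an expected height of 0.03. No position was listed in a 5' UTR under POU5F1 or NANOG.

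By the share of all members with a 5' UTR peak, the lists of regulators lay in between, beside 1.57% over all protein-coding genes. Among members with a peak of any region it ran from 8% (cell cycle regulators) to 20% (Polycomb genes), beside 5.05% over all such genes. By that second measure Polycomb genes stood above splicing factors, at 18.4%. Ubiquitin genes had a 5' UTR peak in 5 of 37 (13.5%), led by USP9X (17) and SKP1, an adaptor of ubiquitin ligases (8). Growth factor and kinase signalling genes had one in 6 of 54 (11.1%). There CTNNB1, which encodes beta-catenin, had 18 in exon 1 and 14 in exon 2 of 16, and IGF1R had 18 at 1025 nt. Actin, tubulin and filament genes had one in 3 of 28: TUBA1B (30), PFN1 (23), the actin-binding protein profilin, and STMN1 (7). Chromatin and lamina genes had one in 4 of 49: HMGA1 (23), CHD1 and LMNB1 (8 each) and HMGA2 (7). Polycomb genes had one in 2 of 32, JARID2 (20) and KDM2B (13), and cell cycle regulators in 2 of 41, CCNB1 (11) and CDKN1B (7). The lists were not tested against each other, and how abundant their mRNAs are was not measured here.

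**Figure D5:**
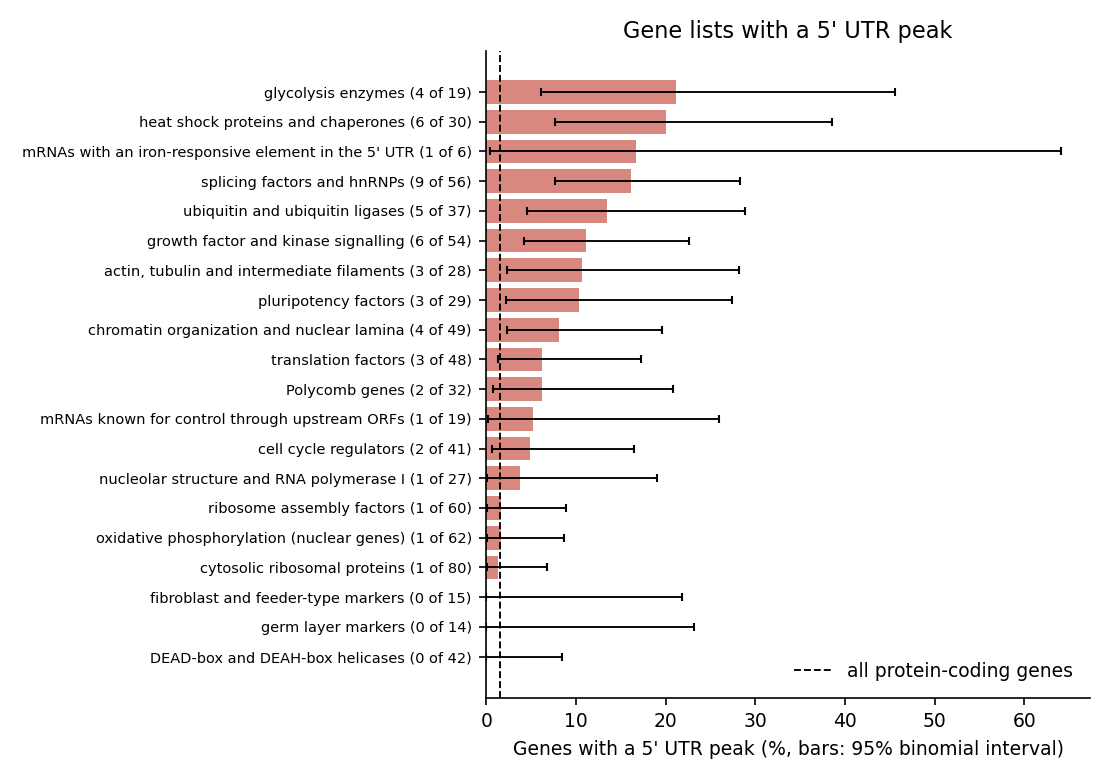
Share of the protein-coding genes of each list with a 5' UTR peak (horizontal axis, percent; the numbers of genes stand beside each name), with exact 95% binomial intervals as thin bars. The dashed line marks the 1.57% of all protein-coding genes, and glycolysis (21.1%) and chaperone genes (20%) have the longest bars.

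The sequence around the gene starts differed little between genes with a 5' UTR peak and genes with peaks elsewhere only. RefSeq windows from 250 bases before to 50 after the start (GRCh38.p14) existed for 259 of 314 and 4879 of 5904 genes. Their G+C content had a median of 66.7% (quartiles 57.5 and 72.2) and 65.7% (quartiles 58.7 and 72.3). A start of C followed by at least 4 pyrimidines on the gene's strand, the form of a terminal oligopyrimidine start, was found in 23 (8.88%, interval 5.71 to 13) and 314 (6.44%, interval 5.76 to 7.16). RPLP1, NPM1, EIF3M and HNRNPA0 were among the 23. The peaks themselves lie beyond these windows and on another build, so no sequence of a peak is given.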

How the data were processed

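iCLIP of FLAG-tagged DDX18 was deposited for 2 samples as 1 pooled list of significant peaks. Per the file header, peaks were annotated on hg19 with annotatePeaks.pl of HOMER. FastQC 0.10.1 and BWA appear in the submitters' processing notes. For the peak caller, duplicates and significance rule: not given in the sources used here. The height is a signal that the authors deposited in whole numbers, unscaled; the expected height and p-value come from the deposited peak names. The deposited distance changes sign for minus-strand peaks and was turned to run downstream. Of entries sharing a position, the one called in the annotated gene was kept, otherwise the first. Names, biotypes and hosts of small RNAs came from the RefSeq table (GRCh38.p14). Hosts are genes that hold a whole small RNA gene by the coordinates of that table, which were not compared with those of the peaks. Strand came from the distances within the list and otherwise from RefSeq.

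Shares have exact (Clopper-Pearson) and medians order-statistic 95% intervals, checked on simulated data. They cover counting error only. No test was made, since the list has no value per replicate. Members and lists were chosen with earlier results of these data known. Named genes are those of the 25 highest positions, with 3 or more positions, up to 6 per list, and the 5 largest heights over expected height. Others were added after their values were seen. Alternatives were every entry, p up to 0.01, height of 6 or more, no small RNA hosts, nearest gene, single-gene positions and matching strand and gene. Python 3.11.15, pandas 2.3.3 and SciPy 1.17.1 were used.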

Additional observations from a re-analysis of the deposited data

How the results depend on the processing

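Over the 7 alternatives and the 7 summary values (the number of positions, median height, height over expected height, share in exon 1, distance from the start and both shares of genes), 44 of 49 values stayed within 1.5 times the count or within the interval of the value reported. The alternative that kept matching strand and gene was chosen after seeing the data. The share of protein-coding genes with a 5' UTR peak fell from 1.57% to 1.33% with p up to 0.01, to 1.35% with a height of 6 or more and to 1.36% without small RNA genes and their hosts. These 3 alternatives keep fewer peaks. The median height over expected height, 88.9 over all 363 positions, was 76.5 with a height of 6 or more. The share of genes with a peak elsewhere was 58% with peaks kept only where the called gene was that of the nearest start site, a setting that keeps fewer peaks of each gene by construction. No paired analysis was possible because the list has no value per replicate, and no replicate could be left out for the same reason. Depth per sample is unknown, and a gene without a listed peak may lack only reads.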
